A study of Mus musculus with 4 samples.

Results

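The replication-dependent histone genes are the clustered genes that supply linker histone H1 and the core histones H2A, H2B, H3 and H4 for newly replicated DNA. They were chosen from the deposited table by symbol, as H1f1 to H1f5 and every numbered H2ac, H2bc, H3c or H4c gene, which gave 64 of 55414 genes. There were 5 H1, 18 H2A, 17 H2B, 12 H3 and 12 H4 genes. Of these, 54 lie on chromosome 13 between 21899933 and 24118834, and 10 lie on chromosome 3 between 96127181 and 96177448, in the GRCm39 coordinates of the table. The table types H2ac14 as an unprocessed pseudogene and the others as protein-coding. The set also takes in H2ac1 and H2bc1, which are known for their expression in the testis.

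RNA came from the cerebral cortex of C57BL/6J mice on postnatal day 1. All animals were homozygous for a floxed allele of Mkk7, listed in the table as Map2k7, which encodes a kinase that activates JNK. There were 2 libraries labelled Control (replicates 2 and 3, with no Cre named) and 2 labelled cKO (replicates 2 and 3, with Emx1-Cre). Emx1-Cre recombines in progenitors of the dorsal telencephalon and their descendants, so interneurons, vessels, meninges and blood in the tissue keep their alleles. No label ties a library to 1 animal, a litter or a pool, so the tests measure only the spread between these 4 libraries.

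Most messenger RNAs end in a poly(A) tail, but a replication-dependent histone mRNA is cut just behind a conserved stem-loop and is not polyadenylated. The stem-loop-binding protein, encoded by Slbp, holds that end, and the mRNA is made in S phase and destroyed when replication stops. Some of these genes also give polyadenylated transcripts that run past the stem-loop, known above all from cells that have left the cycle. The library kit used here, SMART-Seq v4, starts from total RNA and primes on poly(A), so it is not built to read the tailless form.

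The mRNA ends are shown first, because they are what separates these genes from the rest of the table for a poly(A)-primed library. The motif is 16 bases long. It opens with GG and closes with CC, each followed or preceded by 2 free bases, and its middle reads CTTTT, then any base, then AG. It was searched on the transcript strand in the GENCODE transcripts of GRCm38. All 64 genes had a transcript with the same gene identifier and the deposited length. It was found in 39 of the 64 (60.9%), against 98 of 58797 protein-coding transcripts (0.167%) and 124 of all 141767 (0.0875%). The lines below give, for genes described in the results, the 12 bases before the stem-loop in lower case and the stem-loop in capitals, 5′ to 3′.
H2ac24: aaaaaaaaaaaaGGCTCTTTTCAGAGCC
H2ac23: aaaaaaaaaaaaGGCTCTTTTCAGAGCC
H2ac8: aaaaaaaacaaaGGCTCTTTTCAGAGCC
H2ac18: agctcctaaaaaGGCTCTTTTCAGAGCC
H2ac19: agctcctaaaaaGGCTCTTTTCAGAGCC
H2ac20: cgaatccaaaaaGGCTCTTTTTAGAGCC
H1f2: aacaatccaaaaGGCTCTTTTCAGAGCC
H4c4: ccaaaaaccaaaGGCCCTTTTCAGGGCC
H3c3: tatttaaaaaaaGGCTCTTTTAAGAGCC

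The 39 matches took 6 forms, which shared 3 stems and otherwise differed in the last base of the loop; the search itself fixed the other loop letters. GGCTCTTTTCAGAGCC was in 23 genes, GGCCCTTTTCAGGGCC in 6 and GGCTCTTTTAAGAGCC in 5, and 3 rarer forms covered the other 5. H2ac23 and H2ac24 carried 12 A directly against the stem-loop. A run of at least 12 A anywhere in the transcript was found in only 1 further gene, H2ac6. That makes 3 of 64 (4.69%), beside 5.31% of protein-coding transcripts, shares that were not matched for transcript length. A poly(A) signal, AATAAA or ATTAAA in the last 50 bases, was present in 12 (18.75%), against 50.2% of protein-coding transcripts. H2bc4 and H2bc21, both among the genes read best, had no stem-loop motif in the transcript used.

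Library totals lay between 19421491 and 22511247 estimated counts, with counts in 21598 to 21929 genes. CPM is counts per 1000000 in each library after TMM scaling, and TPM is the deposited value per length. Map2k7 had 38.4 and 30.4 CPM in Control 2 and 3 and 47.9 and 48.1 CPM in cKO 2 and 3, so the targeted gene did not read lower with Emx1-Cre, at a log2 fold change of 0.48 with an SE of 0.18 (edgeR adjusted p = 0.428). Which exons are floxed is not given in the sources used here, and a count over the whole gene can include transcripts from a recombined allele. Xist had 0 counts in cKO 3 and 1004 to 1218 in the others, while Ddx3y had 985 counts in cKO 3 and 0 elsewhere, so cKO 3 alone read as male and the groups differ in sex. Markers of cortical excitatory neurons summed to 2064 to 2645 CPM and all 10 were read.

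Counts above 0 were found for 60 of the 64 histone genes in at least 1 library. Per library the number was 52 in Control 2, 44 in Control 3, 51 in cKO 2 and 49 in cKO 3, and 37 genes had counts in all 4 libraries. Most of these counts were small. At least 10 counts in some library were reached by 27 genes, at least 10 in every library by 15, and at least 1 CPM in some library by 19. H1f1, H2ac1, H2ac21 and H3c14 were at 0 in all 4 libraries, where 3 counts, the limit that a count of 0 allows, correspond to 0.133 to 0.154 CPM. That limit does not hold for H3c14, since none (0%) of the 50-base words of its transcript are its own and its reads could all be assigned to copies.

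The families were not read alike. All 12 H4 and all 17 H2B genes had counts somewhere, as did 11 of 12 H3, 16 of 18 H2A and 4 of 5 H1 genes. Yet only 2 H3 genes reached 10 counts in a library, against 11 of the H2A genes. Much of the reading is shared between near-identical copies. Among histone genes with counts, 94.2%, 84.1%, 88.2% and 81.6% held an estimate that was not whole (off by more than 0.001) in Control 2, Control 3, cKO 2 and cKO 3. For all genes with counts the share was 30.7% to 34.3%. For H2ac24 only 6.93% of the 50-base words of its transcript occur in no other gene, for H2ac23 6.50%, for H2ac18 10.6% and for H2ac19 none (0%). H1f2 (91.5% unique), H2bc4 (69.9%) and H2bc21 (100%) share far less. Poor separation was not confined to H2A, since H2bc23 (2.75%), H3c10 (6.08%) and H4c17 (10.2%) were also low, while H2ac6 (85.9%) and H2ac20 (61.4%) were well separated.

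**Figure D1:**
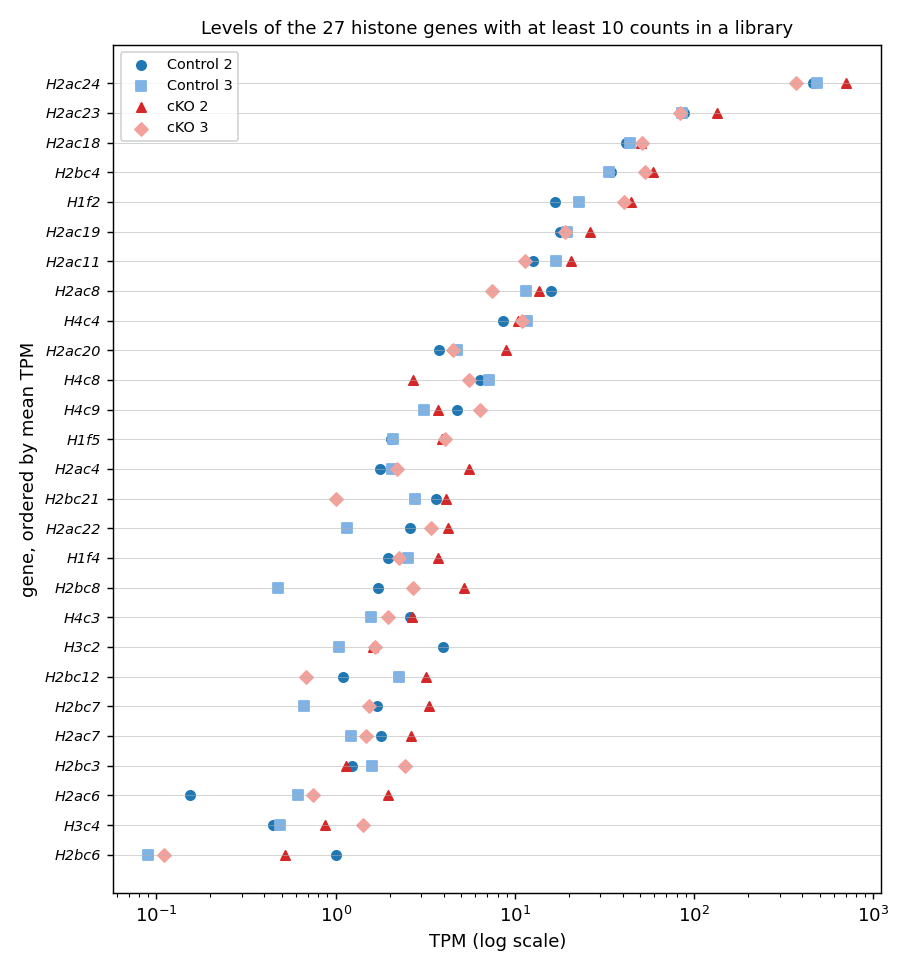
Deposited TPM (log axis) of the 27 histone genes with at least 10 counts in a library, 1 point per library, genes ordered by their mean. H2ac24 stands at the top with 367 to 706 TPM, and H2bc4 and H1f2 show both cKO points to the right of both Control points.

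Among the linker histones, H1f2 was the most abundant per length. It had 16.7 and 22.7 TPM in Control 2 and 3 and 44.5 and 40.5 TPM in cKO 2 and 3. H1f4 had 1.96, 2.55, 3.72 and 2.25 TPM in the same order, and H1f5 had 2.04, 2.10, 3.92 and 4.06 TPM. H1f3 stayed under the test's filter and H1f1 was at 0. The polyadenylated linker histones H1f0 and H1f10, which are made outside S phase, together had 7.04 to 13.7 times the summed TPM of the 5 clustered H1 genes.

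Canonical H2A gave most of the signal, and a pair of genes gave most of that. H2ac24 had 461 and 482 TPM in Control 2 and 3 and 706 and 367 TPM in cKO 2 and 3, the highest of the 64 in each library. H2ac23 followed with 87.4, 85.7, 134 and 83.0 TPM. Together they held 72.0%, 73.0%, 73.4% and 63.9% of the TPM of all 64 genes. In both, cKO 2 was the highest library, so the cKO libraries lay on either side of the Controls. The deposited TPM uses a shorter length than the table lists for H2ac24: counts divided by TPM implied 294 to 311 bases, against 482. With counts divided by the listed length instead, H2ac24 and H2ac23 were still first and second, and H2ac18 moved from the third place to the fifth.

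The other H2A genes were read less. H2ac18 had 41.4, 44.1, 50.3 and 51.2 TPM, H2ac19 had 17.8, 19.5, 26.3 and 19.1 TPM, and H2ac11 had 12.6, 17.0, 20.5 and 11.4 TPM in Control 2, Control 3, cKO 2 and cKO 3. H2ac18 was a little higher in both cKO libraries, whereas the groups overlapped for H2ac19 and H2ac11. H2ac8 had 15.9, 11.5, 13.7 and 7.41 TPM, lowest in cKO 3. H2ac6, a long transcript of 2482 bases, had only 0.154 and 0.618 TPM in Control 2 and 3, against 1.95 and 0.750 TPM in cKO 2 and 3. The 6 H2A variants expressed outside S phase had 1.97 to 3.13 times the summed TPM of the 18 clustered H2A genes.

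H2B was carried by H2bc4, with 34.2 and 33.3 TPM in Control 2 and 3 and 59.1 and 53.1 TPM in cKO 2 and 3. Both cKO libraries were above both Controls. H2bc21 had 3.62, 2.77, 4.12 and 1.01 TPM, with cKO 3 far below the other libraries. H2bc8 (1.71, 0.477, 5.20 and 2.72 TPM) was higher in both cKO libraries, while the groups overlapped for H2bc6, which had 1.01 and 0.090 TPM in Control 2 and 3 and 0.524 and 0.110 TPM in cKO 2 and 3.

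H3 was almost unread. The 12 H3 genes summed to 11.5, 2.62, 8.41 and 6.95 TPM in Control 2, Control 3, cKO 2 and cKO 3. Only H3c4 passed the filter, with 0.447, 0.486, 0.867 and 1.42 TPM. H3f3a and H3f3b, which encode the replacement histone H3.3 from polyadenylated mRNA, together had 315 to 1428 times the TPM of the 12 genes, which therefore made up 0.070% to 0.316% of that sum.

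H4 was led by H4c4, with 8.53, 11.7, 10.3 and 11.0 TPM in Control 2, Control 3, cKO 2 and cKO 3. H4c8 had 6.42, 7.19, 2.69 and 5.55 TPM, lower in both cKO libraries. H4c9 had 4.77, 3.13, 3.74 and 6.38 TPM. The H4 groups were otherwise close: the 12 genes summed to 10.1 and 11.6 CPM in the Controls and 11.3 and 10.9 CPM in the cKO libraries.

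The genotype comparison used the quasi-likelihood test of edgeR on 17017 genes, at a Benjamini-Hochberg adjusted p under 0.05. It tested 20 of the 64 histone genes, 3 H1, 8 H2A, 4 H2B, 1 H3 and 4 H4, and 0 passed, where 0.047% of all tested genes did (0.00588% higher and 0.0411% lower in cKO). DESeq2 called 2, H1f2 and H2bc4, both higher in cKO, of the 28 for which it gave an adjusted p. Of all genes with a DESeq2 adjusted p, 0.415% were called higher in cKO. At an unadjusted edgeR p under 0.05 the same 2 genes appeared, both higher in cKO, beside 10.9% of all tested genes in either direction and 5.28% in that direction.

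H1f2 had the firmest difference among the histones. Its 16.3 and 22.8 CPM in the Controls (mean 19.5 ± 4.63, SD, n = 2) compared with 47.8 and 37.7 CPM in the cKO libraries (42.8 ± 7.12, SD, n = 2), a log2 fold change of 1.13 (SE 0.24). The edgeR adjusted p was 0.280 and the DESeq2 adjusted p 0.00508. H2bc4 went from 18.4 ± 0.758 CPM in the Controls to 34.6 ± 4.43 CPM in the cKO libraries (SD, n = 2 each), a log2 fold change of 0.91 (SE 0.20), with an edgeR adjusted p of 0.280 and a DESeq2 adjusted p of 0.0400. For both genes the gap between groups exceeded the gap within either group. Leaving out any 1 library kept the direction, with log2 fold changes of 0.90 to 1.39 for H1f2 and 0.77 to 1.03 for H2bc4.

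The 2 abundant H2A genes did not separate the groups. H2ac24 had 75.8 and 81.0 CPM in the Controls and 130 and 59.1 CPM in the cKO libraries, a log2 fold change of 0.27 (SE 0.32) that became -0.41 without cKO 2. H2ac23 had 14.2 and 14.3 CPM against 24.6 and 13.3 CPM, a log2 fold change of 0.40 (SE 0.32) that became -0.11 without cKO 2. H2ac18 differed by 0.23 (SE 0.26) with no overlap between groups. The larger values stood on few counts: 2.04 (SE 1.05) for H2bc8, 1.91 (SE 0.92) for H2ac6, 1.30 for H3c4 and 0.96 for H1f5. With 1 library left out, H2bc8 ranged from 1.35 (without cKO 2) to 3.31 (without Control 2) and H2ac6 from 0.94 (without cKO 2) to 3.20 (without Control 3). H2bc8 and H3c4 reached the filter's minimum of 0.509 CPM in the cKO libraries only, so they could enter the test only by being higher there.

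Across the 20 tested histone genes, 16 fold changes were positive and 4 negative, with a median log2 fold change of 0.36. Over all tested genes 49.8% were positive, with a median of -0.00. Without H2bc8 and H3c4 there were 14 positive and 4 negative, with a median of 0.31. The direction of the median hung on 1 library: it was -0.0086 without cKO 2 and 0.80 without cKO 3. Both cKO libraries were above both Controls for 7 of the 20, against 21.9% of all genes, and for 5 of the 18 without H2bc8 and H3c4. They were below the Controls for 1, H4c8, against 22.2% of all genes. Its log2 fold change was -0.68, and ranged from -1.20 without cKO 3 to -0.32 without cKO 2. The others with negative values, H2bc6 (-0.57), H2ac8 (-0.28) and H2bc21 (-0.24), had overlapping groups.

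**Figure D2:**
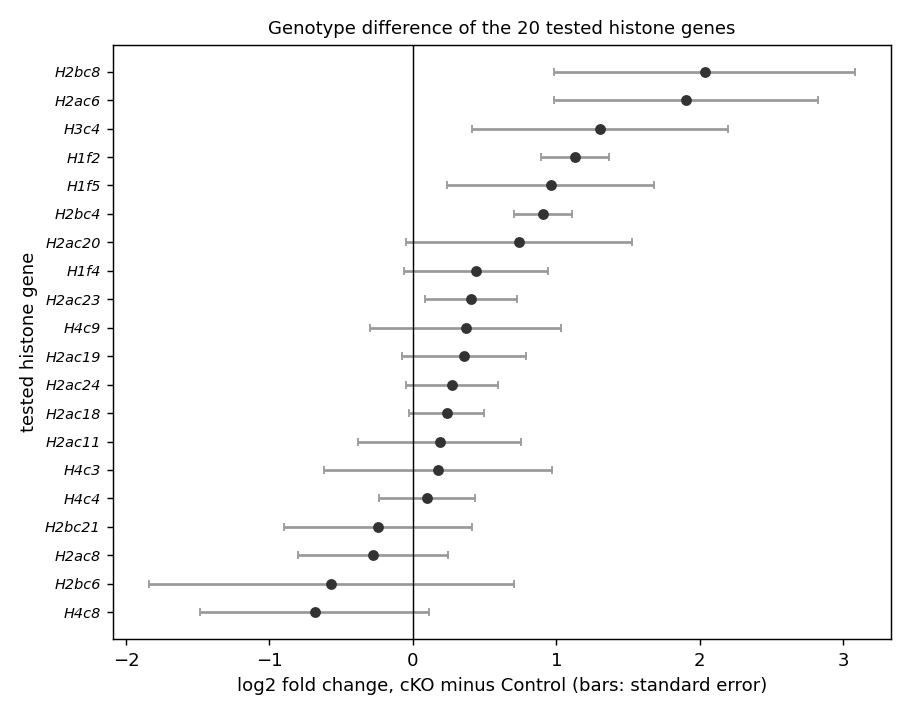
Log2 fold change of cKO over Control for the 20 tested histone genes (points) with the standard error of the edgeR fit (bars), ordered by size. H1f2 (1.13) and H2bc4 (0.91) have short bars well to the right of 0, while H2bc8 and H2ac6 lie farther out with much longer bars.

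Summed over the 64 genes, the level was 174 and 183 CPM in Control 2 and 3 and 310 and 186 CPM in cKO 2 and 3. cKO 2 stood apart and cKO 3 was next to the Controls. The log2 ratio of the group means was 0.47, and 0.056 without cKO 2. The families contributed differently. The H1 sum, mostly H1f2, was 19.5 and 26.9 CPM in the Controls and 54.8 and 41.9 CPM in the cKO libraries, and the H2B sum, mostly H2bc4, was 29.2 and 25.1 against 51.9 and 35.9 CPM. The H2A sum was 112 and 119 against 189 and 94.6 CPM, the only family in which the cKO libraries fell on both sides of the Controls. Without H2ac23 and H2ac24 the sum of the other 62 genes was 83.9 and 88.1 CPM in the Controls and 155 and 113 CPM in the cKO libraries. Most of that sum came from H1f2, H2bc4, H2ac18 and H2ac19. Together these had 48.4 and 55.0 CPM in the Controls and 104 and 84.0 CPM in the cKO libraries. The sum therefore does not speak for the 62 genes as a whole.

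**Figure D3:**
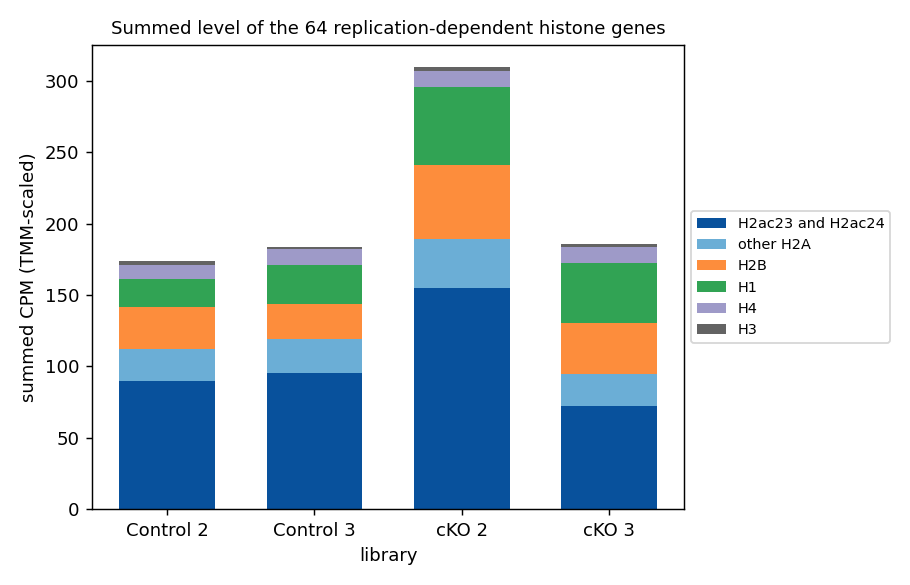
Summed CPM (TMM-scaled) of the 64 histone genes in each library, stacked by family, with H2ac23 and H2ac24 drawn apart from the other H2A genes. The dark H2ac23 and H2ac24 block is tallest in cKO 2 (155 CPM) and lowest in cKO 3 (72.4 CPM), while the H1 block is larger in both cKO libraries than in both Controls.

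The split by annotated mRNA end followed the same lines. The 21 genes whose transcript stops within 100 bases after the stem-loop, H2ac24 among them, summed to 110 and 118 CPM in the Controls and 184 and 93.3 CPM in the cKO libraries. The 18 genes whose transcript runs more than 100 bases past it, H1f2 among them, summed to 34.8 and 41.2 against 75.7 and 56.1 CPM. The 14 without the motif that are not a bare coding frame, H2bc4 among them, summed to 27.4 and 24.2 against 48.7 and 35.1 CPM. The other 11, annotated as exactly a coding frame, gave at most 1.37 CPM in a library. Thus the groups did not overlap for the genes annotated to run on, nor for the 14 without the motif. They did overlap for the genes annotated to stop at the stem-loop. The classes are those of the annotated transcripts, and counts per gene do not show where an mRNA ended. Each of these sums is led by 1 gene, so none speaks for its class as a whole.

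Some other values moved between the libraries in the order seen for H2ac24, which was cKO 2, Control 3, Control 2 and cKO 3 from high to low. Rn7s1, a gene for the 7SL RNA of the signal recognition particle, which has no regular poly(A) tail, had 39.1, 28.2, 25.2 and 14.3 CPM in that order of libraries. Its copy Rn7s2 had 23.8, 17.1, 18.4 and 12.8 CPM, so it was also highest in cKO 2 and lowest in cKO 3 but had the Controls the other way round. Snord13, at 19, 2, 9 and 5 counts, did not follow the order. The red blood cell markers summed to 4908, 3411, 3088 and 1873 CPM in the same order, with 8 of the 10 tested. Sex also separates cKO 3 from the rest. The part of any of these in the H2A values was not tested. Of the 16 tailless RNAs matched in the table, the 14 other than Rn7s1 and Rn7s2 had 0 to 19 counts in a library. Among them Rmrp, Rnu7, Rnu12 and Snora73a were at 0 throughout. Rn7s1 had 328 to 743 counts, Rn7s2 293 to 452 and H2ac24 1352 to 2475. How far tailless RNA enters the H2ac24 counts was not tested.

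Many H2A and H2B genes stand head to head and share the stretch between their starts. There were 13 such pairs, with 176 to 306 bases between starts. Per length, the H2A gene was higher in all 4 libraries in 7 pairs and the H2B gene in 2, and 4 were mixed. H2ac24 had 1352 to 2475 counts, while its partner H2bc24 had 0, 0, 6.28 and 0. H2ac23 likewise had 280 to 467 counts and H2bc23 1.12 to 8.78. The pair of H2ac6 and H2bc4 went the other way, with 5.07, 20.3, 68.1 and 27.6 counts for H2ac6 and 373, 353, 717 and 719 for H2bc4 in Control 2, Control 3, cKO 2 and cKO 3. For the first 2 of these pairs the contrast rests on the estimated split of shared reads, since only 11.5% of the 50-base words of H2bc24 and 2.75% of those of H2bc23 are in no other gene.

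Promoters of 58 of the 64 genes were matched in RefSeq (GRCm38.p6), each 250 bases before to 50 after the start, and motifs were searched on both strands. CCAAT, the box bound by NF-Y, was in 50 of 58 (86.2%), against 37.4% of all 32851 promoters. All 5 H1, 17 H2A, 15 H2B and 10 H3 promoters had it, but only 3 of 11 H4 promoters did. TATAAA was in 34 (58.6%, against 13.6%). The octamer ATTTGCAT, known from H2B promoters, was in 12 (20.7%, against 1.74%), of which 6 were H2A and 6 H2B genes. Head-to-head H2A and H2B genes have 176 to 306 bases between starts, so their windows overlap. The same motif can then count for both genes. AAACACA, known as the H1 box, was in 4 of the 5 H1 promoters, against 7.18% of all. A match describes the letters only.

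The promoters of H1f2, the gene with the firmest difference, and of H2ac24, the most abundant, are printed because they show both kinds. Each is the 250 bases before the start, 5′ to 3′ on the gene's strand, GRCm38.p6 chr13:23738557-23738806 (plus strand) for H1f2 and chr13:21833476-21833725 (minus strand) for H2ac24. Capitals mark AAACACA and CCAAT, the latter as ATTGG where it lies on the other strand.
H1f2: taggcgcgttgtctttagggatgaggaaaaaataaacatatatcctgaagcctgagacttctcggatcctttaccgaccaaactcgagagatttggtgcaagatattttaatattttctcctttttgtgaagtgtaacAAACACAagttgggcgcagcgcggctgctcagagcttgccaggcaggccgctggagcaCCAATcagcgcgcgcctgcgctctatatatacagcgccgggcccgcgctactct
H2ac24: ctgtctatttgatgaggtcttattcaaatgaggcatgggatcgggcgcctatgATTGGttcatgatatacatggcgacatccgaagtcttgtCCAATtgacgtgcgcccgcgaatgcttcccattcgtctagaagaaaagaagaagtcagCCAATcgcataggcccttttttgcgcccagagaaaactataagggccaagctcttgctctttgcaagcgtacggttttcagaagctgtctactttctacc
H1f2 holds 1 AAACACA and 1 CCAAT, and H2ac24 holds 3 CCAAT boxes and no H1 box.

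The genes that make, package and use histones were compared in the same fit. Of 30 genes listed as histone mRNA factors, 13 had positive and 17 negative fold changes, with a median log2 fold change of -0.05. By edgeR 0 passed the test, beside 0.047% of all genes. The list is broad and includes general poly(A) factors (Wdr33, Fip1l1) and a histone-binding protein (Rbbp4). Srrt, the cap-binding partner ARS2, had 59.0 and 54.2 CPM in the Controls and 89.6 and 82.7 CPM in the cKO libraries (log2 fold change 0.61, SE 0.14, edgeR adjusted p = 0.300). Ncbp2, a subunit of the cap-binding complex, had 67.7 and 70.1 against 53.7 and 50.3 CPM (-0.41, SE 0.14). Cpsf3, the nuclease that cuts histone pre-mRNA, had 108 and 103 against 72.3 and 89.4 CPM (-0.38, SE 0.15). The most abundant of the list, Rbbp4 and Cstf2t, had log2 fold changes of 0.14 and 0.09.

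Among 25 chaperones and assembly factors, 12 fold changes were positive and 13 negative, and 1 passed, beside 0.047% of all tested genes. Hjurp, the chaperone that places the centromeric histone CENP-A, fell from 51.9 and 59.8 CPM in the Controls to 16.1 and 13.5 CPM in the cKO libraries (log2 fold change -1.92, SE 0.20, edgeR adjusted p = 0.0414). With any 1 library left out it no longer passed, with edgeR adjusted p values of 0.356 to 0.918 and fold changes of -2.04 to -1.80. Nasp, which stores H3 and H4, had 78.9 and 80.1 against 114 and 94.9 CPM (0.39, SE 0.14), and Spty2d1 had 6.10 and 7.30 against 11.0 and 9.80 CPM (0.63, SE 0.30). The most abundant, Set and Nap1l4, had log2 fold changes of 0.12 and -0.04.

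The 11 replication-independent histone variants had 9 positive and 2 negative fold changes and a median log2 fold change of 0.06, and 0 passed by edgeR. H3f3b had 1828 and 1923 CPM in the Controls and 2366 and 2184 CPM in the cKO libraries (0.28, SE 0.08). Macroh2a1 had 204 and 221 against 288 and 272 CPM (0.40, SE 0.11). H1f0 had 283 and 353 against 451 and 358 CPM (0.35, SE 0.16), and H3f3a, the most abundant after H3f3b, had a log2 fold change of 0.18 (SE 0.10).

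Cell cycle genes were split in direction. The 34 S phase genes had 20 positive and 14 negative fold changes with a median log2 fold change of 0.03, summing to 901 and 955 CPM in the Controls and 935 and 922 CPM in the cKO libraries. Within the list Mcm5, a replicative helicase subunit, had 42.0 and 45.9 against 28.1 and 28.0 CPM (-0.65, SE 0.17), and the licensing factor Cdt1 had 6.76 and 6.74 against 12.1 and 13.5 CPM (0.93, SE 0.28). Pola2, a subunit of DNA polymerase alpha, had 16.9 and 23.4 against 8.42 and 13.6 CPM (-0.87, SE 0.31). None of these passed the test, and the abundant Mcm7 and Pcna had log2 fold changes of 0.18 and -0.13. The 22 genes of G2 and M phase had 12 positive and 10 negative fold changes, with a median of 0.01, and summed to 362 and 382 against 399 and 324 CPM. Its smallest p values belonged to Plk1 (-0.69, SE 0.28), Cenpf (0.42, SE 0.26) and Ccnb2 (-0.44, SE 0.28), and its most abundant genes, Top2a and Ccnb1, had log2 fold changes of -0.11 and 0.15. In both lists 0 genes passed by edgeR, as for the tailless RNAs, of which 3 could be tested: Rn7s1 (-0.00), Rn7s2 (0.04) and Rpph1 (-1.89, SE 0.98, at 3 to 13 counts a library).

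**Figure D4:**
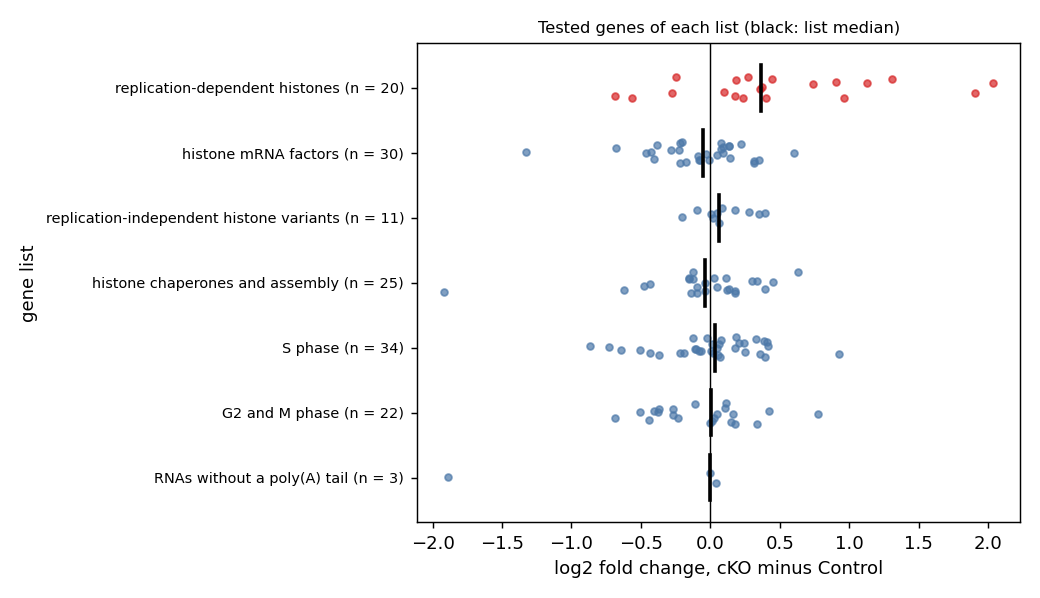
Log2 fold change of cKO over Control for the tested genes of 7 lists, 1 point per gene and the list median as a black line. The median of the replication-dependent histones is 0.36 (-0.0086 without cKO 2), those of the S phase and G2 and M phase genes are 0.03 and 0.01, and Hjurp is the point near -1.92.

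Markers of cell types in the dissected tissue also differed. The 10 striatal neuron markers were all lower in both cKO libraries, as were 22.2% of all tested genes, summing to 470 and 339 CPM in the Controls and 131 in each cKO library, and Rxrg alone passed the test, where 0.0411% of all genes passed as lower in cKO. Its log2 fold change was -3.73 with an SE of 0.38 (edgeR adjusted p = 0.0414, lost without any 1 library). Interneuron markers summed to 956 and 893 against 797 and 672 CPM, and markers of astrocytes and oligodendrocyte precursors to 1079 and 1151 against 807 and 840 CPM. Excitatory neuron markers summed to 2064 and 2388 against 2607 and 2645 CPM. Markers of cortical progenitors summed to 1485 and 1531 against 1518 and 1371 CPM. In bulk tissue, fewer cells of a type and less RNA per cell cannot be told apart.

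The remaining lists had no gene past the threshold. Meningeal and fibroblast markers summed to 344 and 415 CPM in the Controls and 510 and 456 CPM in the cKO libraries, endothelial and pericyte markers to 306 and 281 against 333 and 321 CPM, and microglial markers to 224 and 246 against 236 and 186 CPM. Choroid plexus and ependymal markers differed within groups, at 829 and 28.1 CPM in Control 2 and 3 and 384 and 25.6 CPM in cKO 2 and 3. The part of these differences in the H1f2 and H2bc4 values was not tested.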

How the data were processed

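The authors deposited 1 table with estimated counts and TPM per gene and library, made with DRAGEN on GRCm39 per the submitters' processing notes. The sources used here do not give the version, annotation or filters. Estimated counts, which need not be whole where reads match several genes, were rounded. Totals are given with the results, and counting error is widest for the many histone genes under 10 counts. The default filter of edgeR (4.0.16, R 4.3.3) left 17017 genes. Genotypes were compared with TMM scaling and the quasi-likelihood test, genotype being the only term. SE is the absolute log2 fold change over the square root of F. The authors' TPM values describe levels and carry no test. CPM and TPM sums are per library.

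The histone genes and the 16 gene lists were chosen with earlier results of these data known. Values in every library are given for the 12 histone genes with the highest mean CPM, the 4 with the smallest p in each direction and the leading gene of each family. For pathway lists they are given for up to 3 genes with the smallest p and the 2 most abundant, the latter mostly as a fold change. H1f5, H2ac20 and H3c3 were added after their values were seen. Alternatives were scaling by RLE or upper quartile, omitting the filter or asking a mean of at least 1 CPM, DESeq2 (1.42.0), limma-voom (limma 3.58.1), robust shrinkage, a replicate block and leaving out each library. The labels do not say whether replicate numbers pair the libraries (sensitivity section). Sequences came from GENCODE transcripts and RefSeq promoters of GRCm38, so none of their coordinates was set against the table's.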

Additional observations from a re-analysis of the deposited data

How the results depend on the processing

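Genes called over the whole table numbered 8, 58 without a filter, 182 by DESeq2 and 0 to 2 with 1 library left out. Histone genes called numbered 0 under every edgeR and limma setting and 2 by DESeq2. For the pathway lists the count of 1 became 0 with 1 library left out. The labels do not say whether replicate numbers pair the libraries. Over 17017 genes the deviations of Control 2 and cKO 2 from their group means had a correlation of -0.00209. With 2 libraries a group, that value cannot show whether same-numbered libraries share a litter, day or batch. Choroid plexus and ependymal markers summed to 829 and 384 CPM in Control 2 and cKO 2. In Control 3 and cKO 3 they summed to 28.1 and 25.6 CPM. The replicate block gave 7 called genes, 0 histone genes and 0 pathway-list genes, with a histone median of 0.33.

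The histone median of 0.36 ranged from -0.0086 to 0.80 with 1 library left out. The log2 ratio of summed CPM, 0.47, ranged from 0.056 to 0.79 in the same way. It was 0.92 over genes with whole-number estimates alone. Apart from genes at 0, these were only H2ac20, H1f5 and H1f3, with at most 36 counts in a library. That value therefore does not describe the whole set. The 60 genes with counts became 27 at 10 counts, 19 at 1 CPM and 37 when required in all 4 libraries. With 1 library left out, the log2 fold change changed sign for 9 named histone genes. It ranged from -0.41 to 0.73 for H2ac24, -0.11 to 0.78 for H2ac23, -0.0086 to 0.65 for H2ac19 and -0.094 to 0.83 for H1f4, each lowest without cKO 2 and highest without cKO 3. For H2ac11 it ran from -0.43 to 0.62 in the same way and was -0.032 without Control 2. It ran from -1.74 to 0.48 for H2bc21 and -0.94 to 0.18 for H2ac8, again between leaving out cKO 2 and cKO 3. For H4c4 it ran from -0.12 without Control 2 to 0.35 without Control 3. H2bc6 ran from -2.26 without cKO 2 to 1.89 without Control 2 and was 0.21 without cKO 3. Apart from these steps, whose own construction is 1 library fewer, the cause was not tested. Of the 12 H3 genes 2, and of the 17 H2B genes 7, reached 10 counts in a library, so counting error is wide for the others.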

Other observations

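A few histone genes lie outside the symbol rule and are named after their values were seen. H1f6 and H3f4 were at 0 in all 4 libraries, H4f16 had 0 to 7 counts, H2ac5-ps 1.01 to 5.15 and H2bu1-ps 10.2 to 17.3 counts, while 2 genes were read strongly. H2bu2, an H2B gene on chromosome 11, had 319 and 311 TPM in Control 2 and 3 and 379 and 300 TPM in cKO 2 and 3 (log2 fold change 0.17, SE 0.19). H2aw, an H2A gene on the same chromosome, had 82.2 and 68.1 TPM in the Controls and 93.9 and 110 TPM in the cKO libraries, with a log2 fold change of 0.47 (SE 0.14, edgeR adjusted p = 0.351). By TPM, only H2ac24 of the 64 exceeded H2bu2 in all 4 libraries. By CPM, H2bu2 was above H2ac24 in Control 2 (76.4 against 75.8) and in cKO 3 (70.2 against 59.1).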
